A study of Mus musculus with 4 samples.

Results

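Basement membrane genes were followed through the cells of mouse bone marrow stroma: 10 genes, of the 26600 that all 4 count tables list. The genes were chosen by name and not by a cut on their values, but with earlier results of these data known. They were the laminin chains Lama4, Lama5, Lamb1, Lamb2 and Lamc1, the type IV collagen chains Col4a1 and Col4a2, the nidogens Nid1 and Nid2, and Hspg2, which encodes perlecan. The study asked which mesenchymal cell types the marrow holds. It sorted reporter-positive (Td+) cells from endosteal bone marrow and profiled single cells with 10x Genomics droplets. All mice were male Col2-Cre Rosa26 lsl-tdTomato animals (Col2:Td) on a B6SJL/F1 background, in which Cre driven by the Col2 promoter switches the red reporter on in a cell and its descendants. There was 1 library per age, at 1, 1.5, 3 and 16 months, made from 2, 3, 3 and 3 pooled mice. The sort gate took the top 1% of Td signal, or the Td+ peak where one was obvious.

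A basement membrane is a thin sheet of extracellular matrix that lies under endothelium and epithelium and around muscle, fat and nerve cells. Laminin, a trimer of 1 α, 1 β and 1 γ chain, binds cell-surface integrins and dystroglycan and polymerises on the cell. Type IV collagen forms a second, covalently linked network, and nidogens and the heparan sulphate proteoglycan perlecan tie the networks together. In marrow, such a sheet is known around arterioles, capillaries and sinusoids, where endothelial cells and the cells that wrap them, pericytes and smooth muscle cells (mural cells), both contribute to it. Perlecan is also a known constituent of cartilage matrix, which has no such vessel-wall sheet.

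Positions are those of GENCODE on GRCm38, the build named for these counts (mm10). Col4a1 (chr8:11198423-11312826, minus strand) and Col4a2 (chr8:11312805-11449287, plus strand) stand head to head, and their first exons overlap by 22 bases. Lama4 lies at chr10:38965515-39110188 (plus strand), Lama5 at chr2:180176373-180225859 (minus strand), Lamb1 at chr12:31265234-31329644 (plus strand), Lamb2 at chr9:108479736-108490530 (plus strand) and Lamc1 at chr1:153218922-153332786 (minus strand). Nid1 lies at chr13:13437551-13512269, Nid2 at chr14:19751265-19811787 and Hspg2 at chr4:137468769-137570630, all on the plus strand.

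Promoter sequences are shown for the members whose patterns are set against each other in the results: the collagen pair, whose levels ran most closely together, and Lamb1 and Hspg2, of which one was higher in AD-like stroma and the other in endothelial cells. The windows, from RefSeq on GRCm38.p6, run from 250 bases before to 50 bases after a transcription start, and 7 of the 10 members had one (not Lama4, Lamc1 and Nid2). The first line is the stretch shared by the first exons of the collagen pair, read on the plus strand (chr8:11312805-11312826). The other lines are the bases upstream of Lamb1 (chr12:31265043-31265233) and of Hspg2 (chr4:137468553-137468768), both on the plus strand, with the GC box GGGCGG, its reverse complement and CCAAT in capitals. The first line, left in lower case, also holds the GC box.
Col4a2 and Col4a1: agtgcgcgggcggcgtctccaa
Lamb1: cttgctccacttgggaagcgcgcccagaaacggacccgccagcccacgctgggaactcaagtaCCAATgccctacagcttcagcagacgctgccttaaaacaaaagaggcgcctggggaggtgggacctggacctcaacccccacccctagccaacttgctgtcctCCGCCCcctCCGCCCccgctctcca
Hspg2: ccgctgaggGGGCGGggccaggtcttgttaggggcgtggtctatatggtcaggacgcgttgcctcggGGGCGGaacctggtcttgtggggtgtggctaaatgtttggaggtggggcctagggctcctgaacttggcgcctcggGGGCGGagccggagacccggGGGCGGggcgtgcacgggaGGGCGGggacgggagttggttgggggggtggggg

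On either strand of its window, Hspg2 held 5 matches to GGGCGG and Lamb1 held 2 of that motif and 1 of CCAAT. The GC box was present in the windows of 6 of the 7 members, and in 35.7% of 32851 promoters. CCAAT was present in 4 of 7 members and in 37.4% of promoters, and TATAAA in 0 of 7 and in 13.6%. The motifs share no overlapping match here, and each match is a run of letters. The windows of Col4a1 and Col4a2 shared 78 bases; 9.78% of all windows overlap one of the opposite strand, and no other pair of members did.

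The tables held 8417, 5745, 4516 and 9229 barcodes at 1, 1.5, 3 and 16 months, with a median of 10238, 9309, 5998.5 and 8648 UMIs (unique molecular identifiers, 1 per captured mRNA molecule). The filter of 200 to 6000 genes and at most 5% mitochondrial UMIs kept 98.7, 94.9, 92.6 and 66.6% of them. The 16-month library stood apart: its table lists 31054 genes against 27999 in the others, it kept the smallest share of barcodes, and it shared 1 or 2 cell barcodes with each of the others, which shared 30 to 61 among themselves. Age at 16 months cannot be told apart from how that library was made. With 1 library per age, no test between ages was possible. Differences between cell classes, which come from clustering the same cells, are given for each library and were not tested. Values are CPM, the UMIs of a gene per 1000000 UMIs of its class, and each 95% interval, exact Poisson for a level and exact Clopper-Pearson for a share, covers counting error only. Sets of 4 values are given in the order 1, 1.5, 3 and 16 months.

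Cells were clustered without the 10 members, without the other genes of their pathway and without the marker genes, and clusters were named from fixed markers. The classes carry the study's abbreviations: early and late mesenchymal progenitors (EMP-like, LMP-like), adipocyte-lineage stroma with Adipoq and Lepr (AD-like), osteoblasts (OB-like), osteocytes (Ocy-like) and chondrocytes (CH-like). The study reports that Adipoq-Cre also labelled pericytes around marrow capillaries, so AD-like cells may include cells that wrap vessels. The term vessel classes is used below for endothelial-like and mural-like cells only. AD-like cells numbered 223, 1161, 423 and 3723, endothelial-like cells 166, 32, 247 and 120, and mural-like cells 23, 64, 30 and 23. All 8 AD markers were detected in AD-like cells of each library, with a summed level of 10646, 15625, 13658 and 14169 CPM. All 8 endothelial and all 8 mural markers were detected in their own classes in each library, at summed levels of 4715, 3908, 6424 and 5525 CPM and 19157, 20102, 24805 and 17847 CPM. The endothelial list, with 7 or 8 of its 8 genes detected, reached 50.2, 24.7, 58.7 and 21.6 CPM in AD-like cells, and the mural list, with 6 to 8 of 8 detected, 212, 115, 146 and 250.1 CPM. Kdr, Myh11 and Mcam at 1 month and Mcam at 3 months were at 0 there.

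The summed level of the 10 genes was highest in the 2 vessel classes at 1, 1.5 and 3 months, and in endothelial-like and EMP-like cells at 16 months. Endothelial-like cells held 2374, 1964, 2172 and 2086 CPM and mural-like cells 2301, 2879, 1634 and 1665 CPM. AD-like cells held 895, 936, 896 and 1314 CPM, below both vessel classes in each library, and EMP-like cells 1034, 954, 563 and 1827 CPM. The sums were 409.6, 523, 456 and 890.2 CPM in LMP-like, 129, 200.5, 154 and 196 CPM in OB-like, 105, 244, 119 and 312 CPM in Ocy-like and 513, 842, 574 and 250.1 CPM in CH-like cells, so the bone-forming classes held the least of these 8 classes at 1, 1.5 and 3 months. Neutrophil-like cells, which should lack these genes, read 29.3, 291 and 179 CPM at 1, 1.5 and 16 months, and as little at 3 months as at 1 month. The 2 higher of these readings came with Hspg2 and Nid2 at 1.5 months, at 166 and 59.7 CPM, and with Col4a1 at 16 months, at 48.9 CPM. At 1.5 months the neutrophil-like class had 47 cells, and the sum in erythroid-like cells of that library was 111 CPM. The AD marker list stood in neutrophil-like cells at 15.9, 7.72, 9.56 and 19.1% of its level in AD-like cells. The part of RNA from outside the cell in the levels was not tested beyond the subtraction of the neutrophil-like level given in the closing section.

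**Figure D1:**
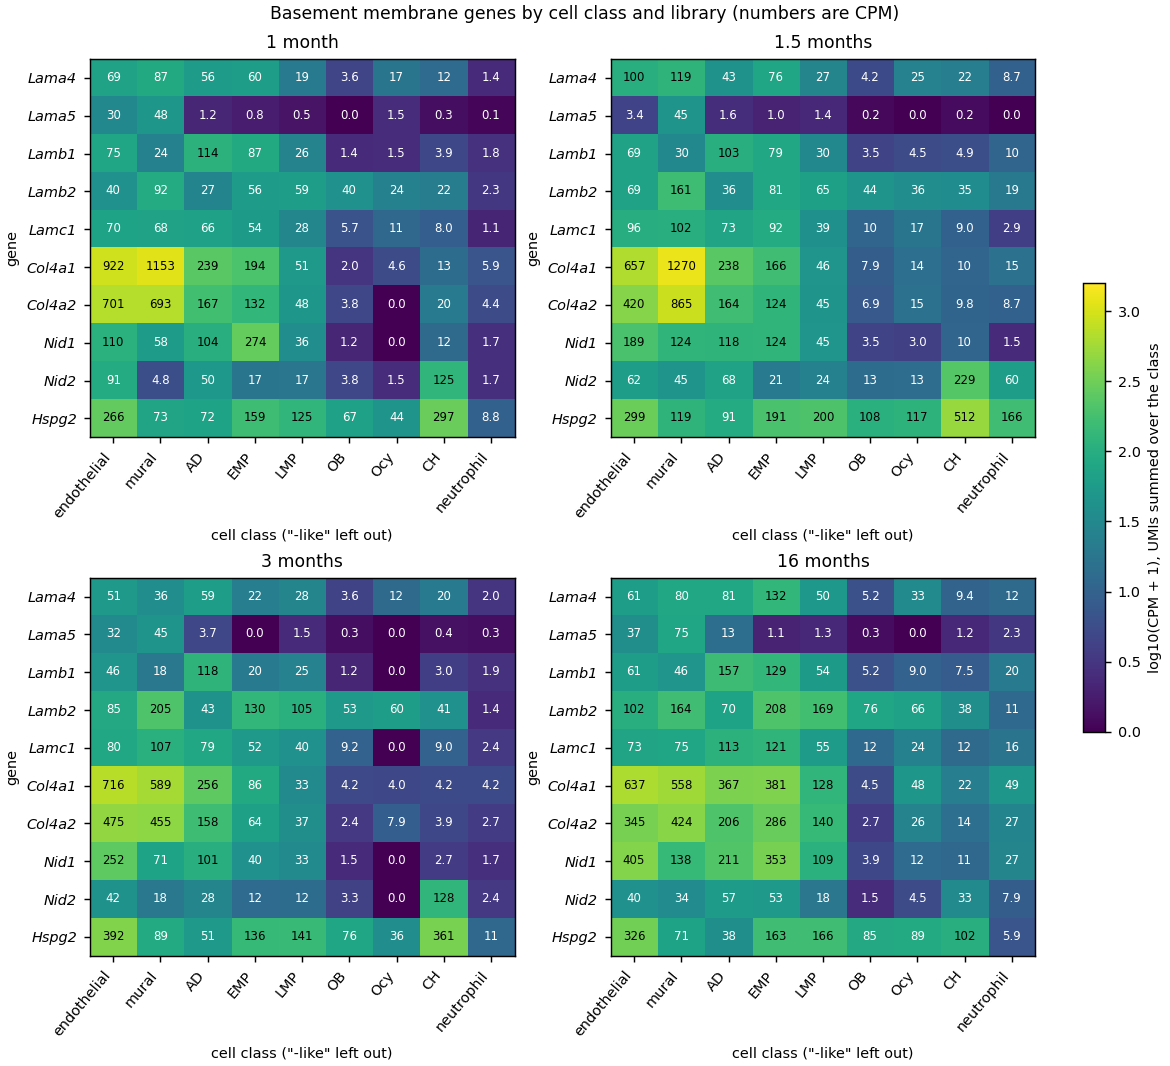
Level of each basement membrane gene (rows) in each cell class of each library (columns), printed in CPM, with colour on a log10(CPM + 1) scale. Col4a1 and Col4a2 are brightest in endothelial-like and mural-like cells, Lamb1 in AD-like cells, and Nid2 and Hspg2 stand out in CH-like cells.

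Type IV collagen had its highest levels in endothelial-like and mural-like cells. Col4a1 encodes the α1 chain, 2 of which join 1 α2 chain from Col4a2 in the common collagen IV trimer. Col4a1 measured 1153, 1269.7, 589 and 558 CPM in mural-like cells and 922, 657, 716 and 637 CPM in endothelial-like cells. The mural-like level was the higher at 1 and 1.5 months, and the intervals of the 2 classes overlapped at 3 and 16 months. AD-like cells came next at 1, 1.5 and 3 months, with 239, 238, 256 and 367 CPM, and at 16 months their interval overlapped that of EMP-like cells (381 CPM). Col4a2 had the same leading classes, with 693, 865, 455 and 424 CPM in mural-like, 701, 419.7, 475 and 345 CPM in endothelial-like and 167, 164, 158 and 206 CPM in AD-like cells. EMP-like cells held 132, 124, 64.2 and 286 CPM of Col4a2, so they read above AD-like cells at 16 months.

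Against AD-like cells, Col4a1 was 3.86, 2.76, 2.80 and 1.73-fold higher in endothelial-like and 4.83, 5.33, 2.31 and 1.52-fold higher in mural-like cells. Both differences were smallest at 16 months, when the AD-like level was 367 CPM (95% interval 361 to 373), the highest of its 4 libraries. In the same library the AD marker list reached 26.2% of its AD-like level in endothelial-like cells and 40.8% in mural-like cells, against 4.45 to 26.7% and 4.71 to 10.1% in the others. The part of those AD transcripts in the smaller difference was not tested. OB-like cells held 2.02, 7.87, 4.16 and 4.49 CPM of Col4a1, which put AD-like cells 118, 30.3, 61.5 and 81.7-fold above them. Each OB-like reading was no higher than that of neutrophil-like cells of the same library (5.93, 14.6, 4.24 and 48.9 CPM).

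The 2 collagen chains kept a similar proportion wherever they were abundant. Col4a2 made up 36.0 to 41.2% of the pair's UMIs in AD-like cells, 35.1 to 43.2% in endothelial-like, 37.5 to 43.6% in mural-like and 40.5 to 42.9% in EMP-like cells. LMP-like cells stood higher, at 48.8 to 52.8%. The head-to-head pair, whose shared first-exon stretch is printed with the promoters, was also the most alike of the members: over 47 combinations of class and library with at least 20 cells, each chain was the other's closest gene by Pearson correlation of log2(CPM + 1), at 0.98, among 10680 genes compared. These points share libraries and cells, and the correlation is a description.

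Laminin chains divided by cell class. Of the α chains, Lama4 encodes the α4 chain, known from endothelium and fat, and Lama5 the α5 chain, known from mature endothelium and epithelium. Lama4 was widespread, at 55.7, 42.8, 58.7 and 81.1 CPM in AD-like, 69.1, 99.8, 51.4 and 61.3 CPM in endothelial-like and 87.2, 119, 35.7 and 79.7 CPM in mural-like cells, with overlapping intervals among its leading classes in 3 libraries. At 16 months EMP-like cells led with 132 CPM, apart from the next class. Lama5 was highest in mural-like cells in all 4 libraries, at 48.4, 44.6, 44.6 and 75.5 CPM on 10, 18, 5 and 18 UMIs, with an interval that overlapped the endothelial-like one at 1, 3 and 16 months. Endothelial-like cells held 30.02, 3.44, 32.5 and 37.0 CPM, the 1.5-month value resting on 32 cells and 1 UMI with an interval of 0.0871 to 19.2 CPM. AD-like cells held 1.22, 1.59, 3.74 and 13.4 CPM and OB-like cells 0, 0.167, 0.297 and 0.281 CPM.

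The Lama5 share of the α4 and α5 pair was lower in AD-like cells, at 2.15 to 14.1% of UMIs, than the 27.3 to 48.6% in mural-like cells of the 3 libraries with at least 10 UMIs of the pair. Its excess in mural-like over AD-like cells was 28.1-fold at 1.5 months (interval 12.5 to 65.7) and 5.65-fold at 16 months (3.32 to 9.02). At 1 month AD-like cells held 2 UMIs of Lama5, so the ratio there has only an interval, 8.43 to 372.

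The β chains differed in proportion between AD-like cells and the other classes. Lamb1 encodes β1 and Lamb2 encodes β2, a chain known from arterial smooth muscle, kidney and the neuromuscular junction. Lamb1 was highest in AD-like cells in all 4 libraries, at 114, 103, 118 and 157 CPM. It measured 74.7, 68.8, 46.0 and 60.6 CPM in endothelial-like, 24.2, 29.8, 17.9 and 46.1 CPM in mural-like and 87.3, 78.7, 20.1 and 129 CPM in EMP-like cells. The AD-like interval overlapped that of EMP-like cells, the next class, at 1, 1.5 and 16 months, and at 3 months AD-like cells stood apart from endothelial-like cells, the next class there. AD-like cells were 1.53, 1.50, 2.57 and 2.60-fold above endothelial-like cells. They were 4.72, 3.47 and 3.41-fold above mural-like cells at 1, 1.5 and 16 months. At 3 months mural-like cells held 2 UMIs of Lamb1, so the ratio there has only an interval, 1.82 to 55.1. No other member read higher in AD-like cells than in both vessel classes in all 4 libraries. The study had itself reported Lamb1 from these data as relatively higher in its adipocyte cluster than in its other mesenchymal clusters.

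Lamb2 was highest in other classes. Mural-like cells held 92.0, 161, 205 and 164 CPM and were highest at 1, 1.5 and 3 months, and EMP-like cells, with 55.8, 80.8, 130.3 and 208 CPM, were highest at 16 months. AD-like cells held 26.9, 35.7, 42.7 and 70.2 CPM, and mural-like cells exceeded them 3.42, 4.51, 4.81 and 2.33-fold. The OB-like values, 40.3, 44.0, 52.5 and 76.1 CPM, read above the AD-like level in each library. As a share of β1 and β2 UMIs, β2 made up 19.0 to 30.8% in AD-like, 35.2 to 64.9% in endothelial-like, 78.0 to 92.0% in mural-like and 92.6 to 97.8% in OB-like cells, so its AD-like range lay below those of the other 3 classes. The progenitor classes also lay above it, at 39.0 to 86.7% in EMP-like and 68.5 to 80.7% in LMP-like cells, as did CH-like cells at 83.6 to 93.3%.

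Lamc1 encodes γ1, the chain that pairs with either β chain. Its AD-like, endothelial-like and mural-like levels lay within 2-fold of each other in each library, at 66.1, 72.9, 79.0 and 113 CPM in AD-like, 69.8, 96.3, 79.9 and 73.4 CPM in endothelial-like and 67.8, 101.7, 107 and 75.5 CPM in mural-like cells. OB-like cells held 5.67, 10.0, 9.20 and 11.5 CPM, and AD-like cells exceeded them 11.7, 7.26, 8.58 and 9.81-fold.

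**Figure D2:**
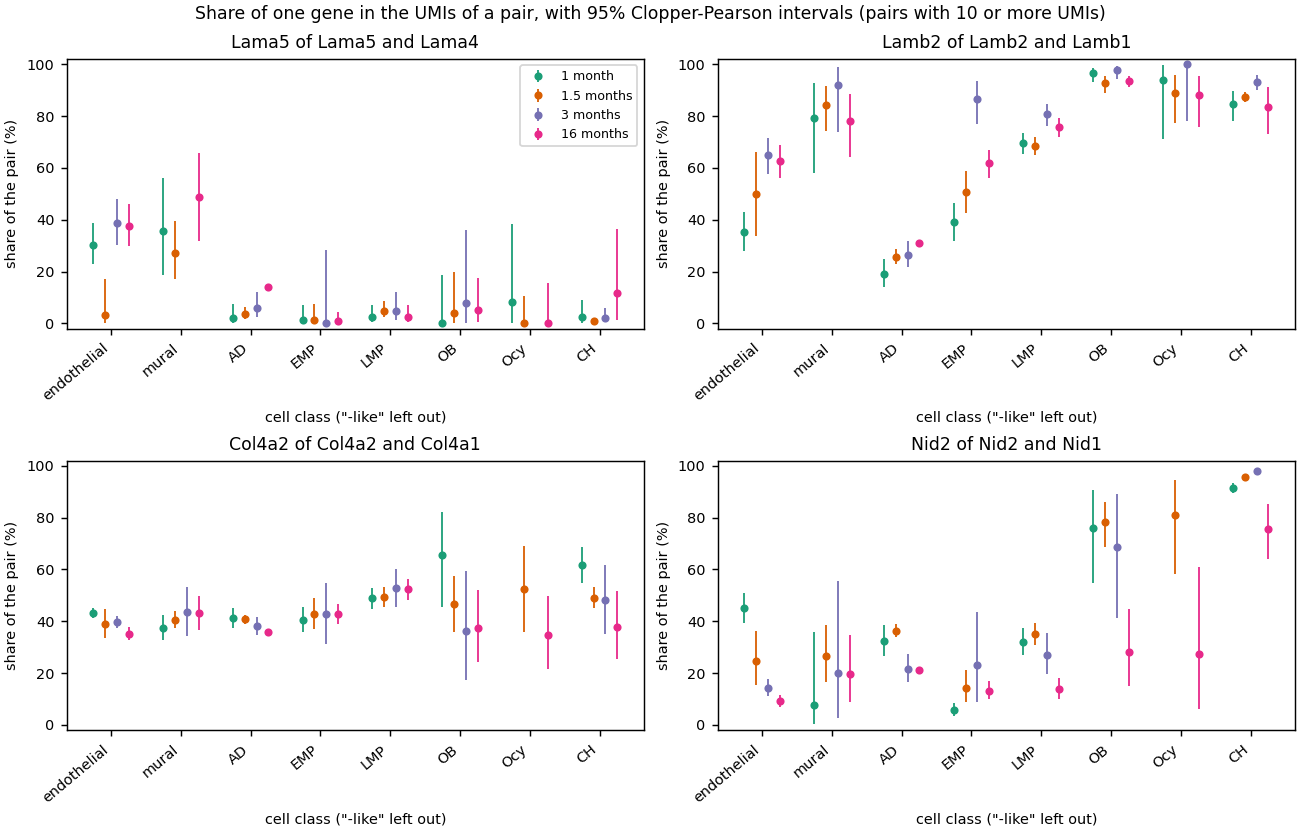
Share of each pair's UMIs that came from one partner (y axis, percent) by cell class (x axis) and library (colour), with exact Clopper-Pearson 95% intervals, for pairs with at least 10 UMIs. The Col4a2 share varies little between AD-like, endothelial-like and mural-like cells, whereas the Lamb2 share is lowest in AD-like cells and above 90% in OB-like cells.

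The nidogens, glycoproteins that link laminin to type IV collagen, were highest in different cells. Nid1 measured 104, 118, 101 and 211 CPM in AD-like cells and 110.3, 189, 252 and 405 CPM in endothelial-like cells. EMP-like cells held 274, 124, 40.1 and 353 CPM and were the highest class at 1 month. OB-like cells held 1.21, 3.51, 1.48 and 3.93 CPM and CH-like cells 11.7, 10.0, 2.69 and 10.6 CPM. Nid2 had its highest level in CH-like cells at 1, 1.5 and 3 months, with 125, 229, 128.4 and 33.1 CPM over all 4 libraries, and the first 3 values stood apart from the next class. At 16 months CH-like cells were 118 in number, and AD-like cells, with 56.9 CPM, had the highest value, overlapping EMP-like cells. AD-like cells held 49.6, 67.8, 27.8 and 56.9 CPM of Nid2. At 1.5 months neutrophil-like cells read 59.7 CPM of Nid2, or 88.0% of the AD-like level, and 1.73, 2.36 and 7.85 CPM in the other libraries. Nid2 made up 75.7 to 97.9% of nidogen UMIs in CH-like cells and 21.2 to 36.4% in AD-like cells.

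Perlecan was high in both CH-like and endothelial-like cells and was measured in bone cells too. Hspg2 measured 297, 512, 361 and 102.3 CPM in CH-like cells and 266, 299, 391.8 and 326 CPM in endothelial-like cells. CH-like cells led at 1 and 1.5 months and endothelial-like cells at 3 and 16 months, with overlapping intervals at 1 and 3 months. LMP-like cells held 125, 199.97, 141 and 166 CPM and EMP-like cells 159, 191, 136 and 163 CPM. AD-like cells held 71.6, 91.0, 50.7 and 38.3 CPM, so endothelial-like cells exceeded them 3.71, 3.29, 7.73 and 8.51-fold, with intervals of 3.01 to 4.61, 2.60 to 4.12, 6.21 to 9.70 and 7.66 to 9.45. Mural-like cells held 72.7, 119, 89.3 and 71.3 CPM, below the endothelial-like level in each library. OB-like cells held 66.8, 107.6, 76.3 and 84.8 CPM and exceeded AD-like cells at 3 and 16 months. Neutrophil-like cells read 8.75, 166, 10.996 and 5.89 CPM of Hspg2. At 1.5 months the AD-like, mural-like and OB-like levels all lay below that reading, which came from 47 cells. Erythroid-like cells of that library read 111 CPM over all 10 genes together. Whether the neutrophil-like reading is a background that all classes share was not tested, so the order of those levels there is uncertain. Subtracting the neutrophil-like level left nothing of the AD-like level at 1.5 months, and the endothelial-like fold of 3.29 became 307 against a floor of 3 UMIs.

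**Figure D3:**
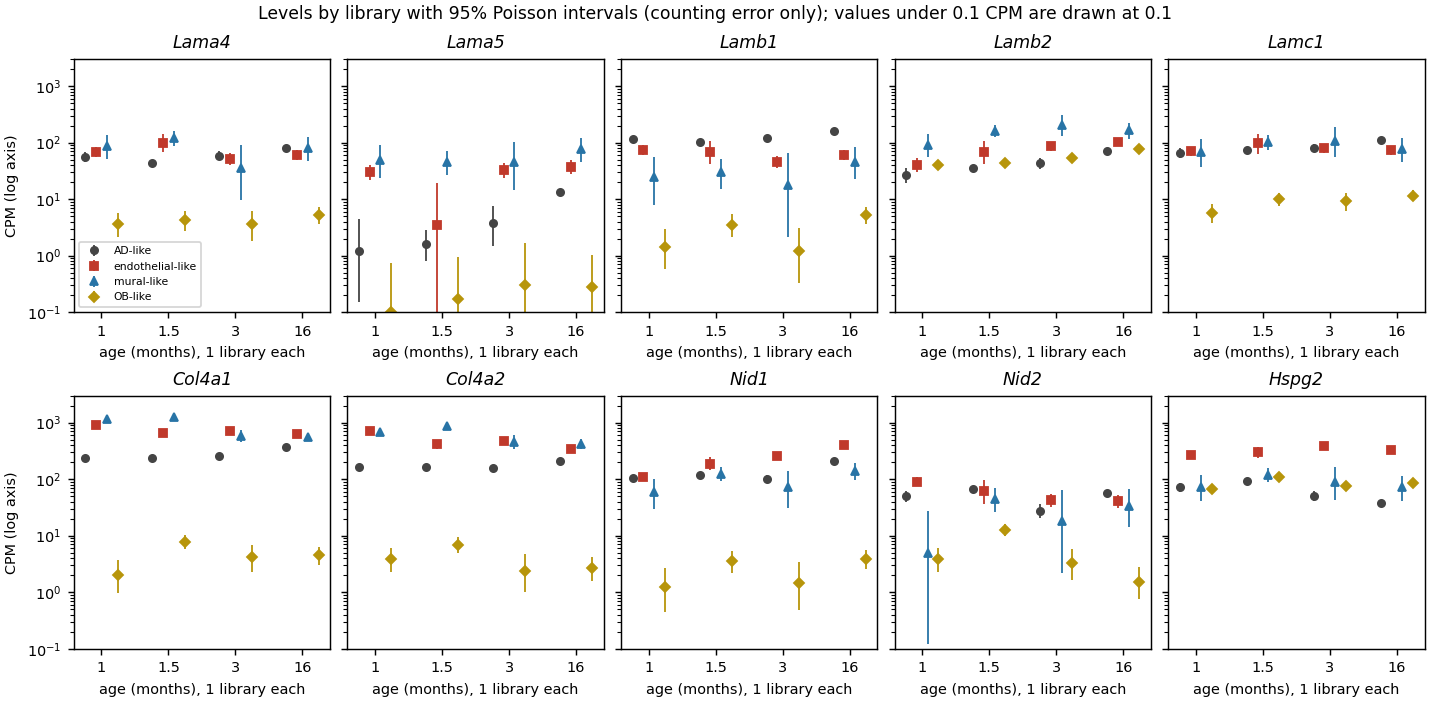
Level of each of the 10 genes (one panel each, CPM) in AD-like, endothelial-like, mural-like and OB-like cells of the 4 libraries, with exact Poisson 95% intervals. Lamb1 is highest in AD-like cells in each library, Hspg2 in endothelial-like cells, and Lama5 in mural-like cells.

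The classes thus differed in which basement membrane genes made up their UMIs. Type IV collagen supplied 43.0 to 46.2% of the 10 genes' UMIs in AD-like cells, 47.0 to 68.4% in endothelial-like and 58.9 to 80.2% in mural-like cells. The 5 laminin chains supplied 27.4 to 33.8% in AD-like and 12.0 to 17.2% in endothelial-like cells. In OB-like cells type IV collagen, whose Col4a1 level did not exceed the neutrophil-like reading, supplied 3.66 to 7.35%. Perlecan, below the neutrophil-like reading in the 1.5-month library, supplied 43.3 to 53.7% there. Perlecan also supplied 40.9 to 63.0% in CH-like cells, where type IV collagen supplied 1.41 to 14.5% and nidogens 17.5 to 28.3%. Shares of UMIs weigh each gene by how well its 3′ end was captured, so each is compared here between classes.

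**Figure D4:**
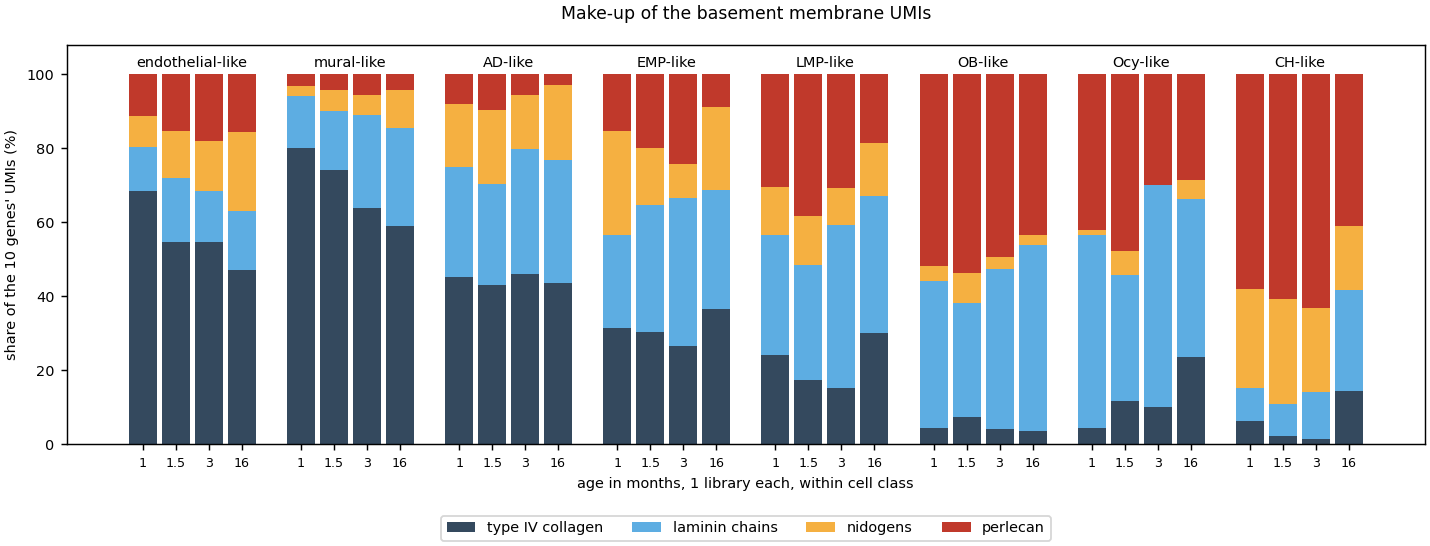
Share of the 10 genes' UMIs (y axis, percent) from type IV collagen, laminin chains, nidogens and perlecan in each cell class and library (stacked bars). The type IV collagen part is larger in mural-like, endothelial-like and AD-like bars than in OB-like and CH-like bars, and the perlecan part is larger in OB-like and CH-like bars than in those 3 classes.

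Counts of members past a 2-fold difference, among genes with at least 10 CPM in 1 of the 2 classes, were read against the same count over all genes. Endothelial-like cells had 4, 4, 5 and 2 members at least 2-fold above AD-like cells, of 10, 9, 10 and 10 tested. Of all genes tested, 16.6, 19.1, 22 and 16.1% were that much higher. The median log2 difference was 0.73, 0.95, 1.16 and 0.64 over the members and 0.04, 0.18, 0.19 and 0.03 over all genes. Hspg2 alone passed in all 4 libraries, and Col4a1 and Col4a2 passed in the first 3. Without the 16-month library 3 members passed in each remaining one, and without the 1.5-month library Lama5 joined Hspg2. Lamb1 was the only member at least 2-fold lower in endothelial-like cells, at 3 and 16 months, against 15.9, 7.58, 13 and 13.3% of all genes lower in the 4 libraries.

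Mural-like cells had 4, 5, 4 and 3 members at least 2-fold above AD-like cells, against 13.6, 14.6, 28.7 and 12.6% of all genes. Lama5, Lamb2 and Col4a2 passed in all 4 libraries. Members at least 2-fold lower numbered 2, 1, 1 and 1, against 10.4, 10.7, 7.09 and 7.05% of all genes, and Lamb1 was among them in each library. Nid2 joined it at 1 month, on 1 UMI in 23 mural-like cells. The members' median log2 difference was 0.34, 0.98, 0.63 and 0.29, and that of all genes 0.06, 0.13, 0.44 and 0.09.

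AD-like cells stood above OB-like cells for 7, 7, 7 and 8 members, of 9, 9, 9 and 10 tested, against 37.5, 40.4, 34.1 and 41.9% of all genes. Lama4, Lamb1, Lamc1, Col4a1, Col4a2, Nid1 and Nid2 passed in all 4 libraries, and Lama5 at 16 months. The median log2 difference was 3.93, 3.36, 4.04 and 4.95 over the members and 0.72, 0.81, 0.67 and 0.82 over all genes. Lamb2 and Hspg2 were the exceptions. Lamb2 was 0.669, 0.812, 0.813 and 0.923 times and Hspg2 1.07, 0.846, 0.665 and 0.451 times the OB-like level. Hspg2 at 16 months was the 1 member at least 2-fold lower in AD-like cells, and 6.17, 5.42, 6.49 and 5.87% of all genes were that much lower. Scaling by median-of-ratios size factors in place of total UMIs moved each of these log2 differences down by 0.57 to 0.70, which put Hspg2 and Lamb2 below the OB-like level in all 4 libraries and left the other 7 members above it.

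The other mesenchymal classes were set against AD-like cells in the same way. EMP-like cells had Lamb2 and Hspg2 at least 2-fold above AD-like cells in all 4 libraries and Nid1 at 1 month, 3, 2, 2 and 2 members in all, against 10.2, 10.7, 14.1 and 9.32% of all genes. Members at least 2-fold lower there numbered 1, 1, 6 and 1, against 15.2, 16.8, 16.9 and 7.28% of all genes, with Lama4, Lamb1, both collagen chains and both nidogens at 3 months. LMP-like cells had 1, 1, 2 and 2 members higher, Lamb2, Hspg2 or both (9.71, 9.75, 10.8 and 9.81% of all genes), and 7, 5, 6 and 5 lower (13.8, 15.1, 15.4 and 11.5%). Lamb1, Col4a1 and Nid2 were lower in LMP-like cells in each library. At 1.5 months the neutrophil-like Hspg2 level was 87.1% of the EMP-like, 83.1% of the LMP-like and 182.5% of the AD-like level. The Hspg2 calls of that library thus rest on values near or under that neutrophil-like level, which came from 47 cells.

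CH-like cells had Hspg2 higher in all 4 libraries and Nid2 in the first 3, making 2, 2, 2 and 1 members (11, 13.2, 11.7 and 11.6% of all genes), and 6, 5, 6 and 7 lower (24.5, 28.8, 29.8 and 28.6%). Lamb1, Lamc1, Col4a1, Col4a2 and Nid1 were lower in CH-like cells in each library. Ocy-like cells, on 33 to 96 cells, had 0, 0, 0 and 1 members higher (7.82, 8.04, 10.9 and 9.12%), the 1 being Hspg2, and 7, 6, 7 and 8 lower (38.3, 32, 22.7 and 28.9%).

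Among AD-like cells, the 3-month and 16-month libraries were compared. Nid1 was 2.08-fold higher at 16 months (interval 1.80 to 2.41), at 211 against 101 CPM, Nid2 2.05-fold (1.56 to 2.75) and Lama5 3.58-fold (1.72 to 8.94, 13.4 against 3.74 CPM). Those 3 members passed 2-fold, as did 14.2% of all genes tested. No member was 2-fold lower, against 5.62% of all genes. The median log2 difference was 0.52 over the members and 0.18 over all genes. Col4a1 was 1.44-fold higher (1.31 to 1.58), Lamb2 1.65-fold, Lamc1 1.43-fold and Lamb1 1.33-fold. Hspg2 was the member that read lower, at 0.755 times the 3-month level (0.613 to 0.939).

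The 1-month and 1.5-month libraries showed which of these differences rested on the choice of the 3-month library. Nid1 in AD-like cells measured 104, 118, 101 and 211 CPM, close together at the 3 younger ages. Lama5 measured 1.22, 1.59, 3.74 and 13.4 CPM, with an interval of 12.2 to 14.6 CPM at 16 months that lay above the other 3. Nid2, in contrast, measured 49.6, 67.8, 27.8 and 56.9 CPM, with the lowest level at 3 months. Its 16-month level was 1.15-fold that at 1 month (0.919 to 1.45), and the higher 1.5-month level stood beside a neutrophil-like reading of 59.7 CPM. Hspg2 measured 71.6, 91.0, 50.7 and 38.3 CPM, lowest at 16 months, with an interval there of 36.3 to 40.3 CPM that lay below the others, of which the 1.5-month level was under the neutrophil-like reading of 166 CPM. Nid1 and Nid2 were near the 2-fold line: under 15 alternative settings Nid1 ranged from 1.84-fold to 2.12-fold, Nid2 from 1.66-fold to 2.14-fold and Lama5 from 2.33-fold to 4.22-fold. The neutrophil-like level at 16 months was 27.5 CPM for Nid1, 2.29 CPM for Lama5, 7.85 CPM for Nid2 and 5.89 CPM for Hspg2, against 1.73, 0.314, 2.36 and 10.996 CPM at 3 months.

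**Figure D5:**
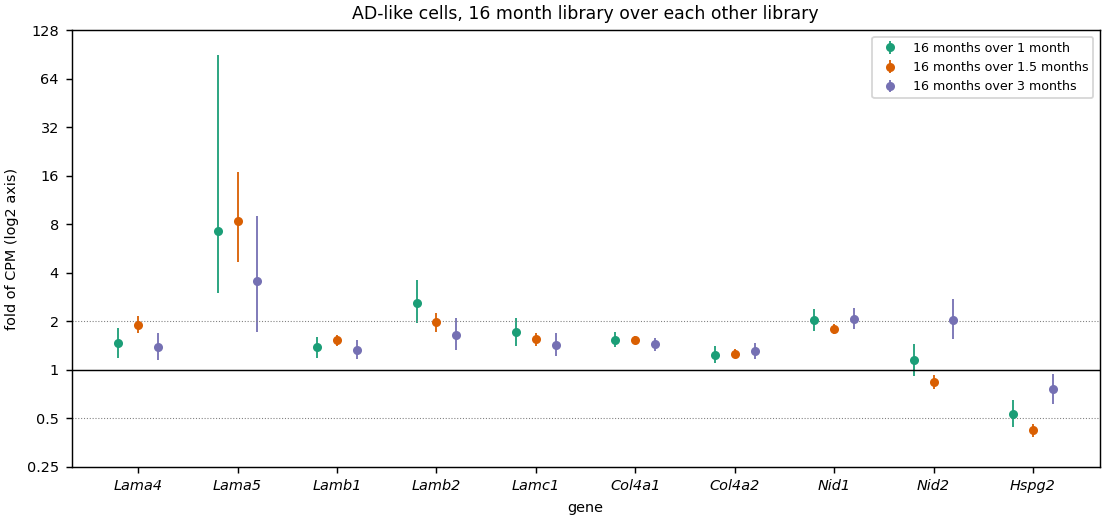
Ratio of the 16-month level to that of each other library in AD-like cells (y axis, log scale) for the 10 genes, with exact 95% intervals for counting error and counts under 3 UMIs set to 3. The 8 members other than Nid2 and Hspg2 lie above 1 against all 3 younger libraries, Hspg2 lies below 1 against all 3, and Nid2 lies below 1 against the 1.5-month library only.

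Endothelial-like cells gave another set of levels over the same libraries. Nid1 there was 110.3, 189, 252 and 405 CPM and Lamb2 40.5, 68.8, 85.3 and 101.6 CPM, both highest at 16 months as in AD-like cells. Col4a2, at 701, 419.7, 475 and 345 CPM, read lowest there, and Nid2, at 90.7, 61.9 (near the neutrophil-like 59.7), 41.96 and 40.4 CPM, had overlapping intervals at 3 and 16 months. Hspg2 showed no such low reading, at 266, 299, 391.8 and 326 CPM. From 3 to 16 months, Nid1 was 8.79-fold higher in EMP-like and 3.28-fold in LMP-like cells, beside 2.08-fold in AD-like cells. Col4a1 was 4.42-fold and 3.86-fold higher there, beside 1.44-fold. Lamb2 was 1.59-fold and 1.61-fold, beside 1.65-fold, and LMP-like Nid2 1.43-fold, beside 2.05-fold. EMP-like Nid1 and Col4a1 were both lowest at 3 months, and their 16-month levels were 1.28-fold and 1.96-fold those at 1 month. At 16 months the neutrophil-like level was 38.4% of the LMP-like level for Col4a1 and 25.1% for Nid1. In the same order it was 12.8 and 7.79% of the EMP-like and 13.3 and 13.0% of the AD-like level.

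AD-like cells with and without vessel transcripts were also compared. Cells with no UMI of any endothelial or mural marker numbered 75 of 223, 566 of 1161, 201 of 423 and 576 of 3723. Their summed level of the 10 genes was 812, 928, 936 and 1201 CPM, beside 895, 936, 896 and 1314 CPM in all AD-like cells. Shallow cells are more likely to have no such UMI. The summed level was of similar size in AD-like cells without a detected vessel marker. Because the split favours shallow cells, it cannot show how much of the level came from vessel RNA.

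Within the AD-like class the summed level varied between subclusters. At 16 months the 3 largest AD-like subclusters, of 1406, 1126 and 852 cells, had sums of 1299.9, 1208 and 1367 CPM. The subcluster of 124 cells led by A530020G20Rik and Ankrd52 had the highest, 2133 CPM, with 618 CPM of Col4a1 and 255 CPM of Lamb1. One of 61 cells led by Kit, Fabp4 and Cd36 had 584 CPM of Col4a1 and 27.4 CPM of Lama5 beside 20.1 CPM of Nid2 and 25.6 CPM of Hspg2. At 1 month the 2 AD-like subclusters, of 180 and 43 cells, had sums of 914 and 809.8 CPM, and at 1.5 months those of 848 and 313 cells had 929 and 957 CPM.

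Subclusters of the progenitor and cartilage classes differed in single members. LMP-like cells led by Nov held 85.5, 73.9 and 48.5 CPM of Col4a1 at 1, 1.5 and 3 months, and those led by Ostn 19.4, 20.5 and 19.7 CPM. Nid1 and Lamb2 had the same order, with 57.0, 92.6 and 57.9 against 17.5, 23.1 and 12.2 CPM for Nid1 and 75.1, 105 and 147 against 46.9, 49.4 and 68.4 CPM for Lamb2. Among CH-like cells, those led by Col10a1 and Ihh, genes of hypertrophic cartilage, held 387, 606, 414 and 73.7 CPM of Hspg2. Those led by Cytl1 and Sfrp5 held 187 and 275 CPM at 1 and 1.5 months. Lama4 was 24.2, 39.5 and 30.4 CPM in the Col10a1-led cells of the 3 younger libraries, against 3.61 and 7.71 CPM in the Serpina1d-led cells at 1 and 1.5 months.

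The genes whose levels ran most like the sum of the 10 members over the 47 points were Igfbp7 (Pearson correlation 0.93), Hspb1 (0.92), Tgfb1i1 (0.92), Fermt2 (0.92) and Adamts1 (0.91), among 10671 genes. Fermt2 was also closest to Lama4 (0.90), Plpp3 to Lamb1 (0.95) and to Lamc1 (0.91), and Phldb2 to Nid1 (0.94). Gja4 was closest to Lama5 (0.91), Klf9 to Lamb2 (0.93), Lpar4 to Nid2 (0.86) and Grb10 to Hspg2 (0.91). Between members, Nid1 and Lamb1 ran closely (0.93), whereas Hspg2 ran less closely with Col4a1 (0.41) and Lama5 (0.27) than with Lamb2 (0.76) and Nid2 (0.73). The points share libraries and cells, so these values are descriptions.

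The other genes of the pathway were read from lists of 39 genes. In endothelial-like over AD-like cells, 10, 9, 9 and 10 of 24, 24, 24 and 27 tested were at least 2-fold higher and 5, 1, 4 and 5 lower. Of all genes tested, 16.6, 19.1, 22 and 16.1% were that much higher and 15.9, 7.58, 13 and 13.3% that much lower. Col15a1, Col18a1, Npnt, Tinagl1 and Vwa1, all matrix components of or beside basement membranes, were higher in each library, and Fbln1 lower. Fbln1, the matrix protein fibulin-1, was 165, 92.7, 81.7 and 117 CPM in AD-like and 7.68, 13.8, 8.12 and 20.2 CPM in endothelial-like cells. Pxdn, the peroxidase that forms the sulfilimine crosslinks of type IV collagen, was 62.1, 68.8, 109 and 63.3 CPM in endothelial-like and 2.45, 2.46, 2.67 and 3.90 CPM in AD-like cells. Itga6, an integrin α chain for laminin, was 112, 131, 148 and 140.0 CPM in endothelial-like cells, against 2.45, 1.30, 10.7 and 0.515 CPM in AD-like cells.

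Laminin receptors were also measured in mural-like cells. Of 22, 24, 23 and 25 list genes tested against AD-like cells, 7, 8, 9 and 7 were higher and 2, 1, 3 and 2 lower. Over all genes the shares were 13.6, 14.6, 28.7 and 12.6% higher and 10.4, 10.7, 7.09 and 7.05% lower. Itga7, the α chain of the muscle laminin receptor, was 136, 154, 161 and 96.5 CPM in mural-like cells, 0.698, 13.8, 3.38 and 6.06 CPM in endothelial-like cells and at most 1.45 CPM in AD-like cells. Itga6 was 4.84, 4.96, 0 and 0 CPM in mural-like cells, on at most 2 UMIs. Bcam, a receptor for laminin α5, was 247, 201, 321 and 185 CPM in mural-like cells, the class with the highest Lama5, 63.5, 34.4, 90.0 and 69.3 CPM in endothelial-like cells and 1.84, 2.75, 4.80 and 6.21 CPM in AD-like cells. Tinagl1 was 664, 813, 1116 and 537 CPM and Col18a1, whose product holds endostatin, 581, 665, 429 and 453 CPM in mural-like cells.

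Between AD-like and OB-like cells, 9, 8, 8 and 11 of 19, 18, 19 and 20 list genes tested were higher in AD-like cells and 6, 6, 6 and 4 lower. All genes tested gave 37.5, 40.4, 34.1 and 41.9% higher and 6.17, 5.42, 6.49 and 5.87% lower. Dag1, the dystroglycan precursor, was 95.5, 107, 119.6 and 170.0 CPM in AD-like and 33.2, 38.3, 35.0 and 58.0 CPM in OB-like cells. Itga1, the α chain of a collagen IV-binding integrin, was 67.9, 38.9, 48.6 and 304 CPM in AD-like and 0.809, 1.00, 0.891 and 5.76 CPM in OB-like cells. Sparc, which encodes a collagen-binding matrix protein of bone and basement membranes, was 47585, 47553, 48703 and 45517 CPM in OB-like cells and 6025, 5611, 3405 and 2633 CPM in AD-like cells. Serpinh1, a collagen chaperone, was 4898, 4909.8, 4304 and 2419.6 CPM in OB-like and 1793, 2256, 1717 and 828 CPM in AD-like cells.

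From 3 to 16 months in AD-like cells, 6 of 21 list genes tested were at least 2-fold higher and 2 lower. Of all genes, 14.2% were that much higher and 5.62% that much lower. Itga1 was 304 against 48.6 CPM, and was high at 16 months in endothelial-like (372 against 44.0 CPM) and mural-like cells (339.7 against 80.4 CPM) too. Lama2, the α2 laminin chain, was 34.3 against 4.80 CPM, Smoc2 96.5 against 17.1 CPM and Lama1 10.9 against 4.80 CPM. Lama2 also read higher at 16 months in EMP-like (133 against 24.1 CPM), LMP-like (62.9 against 14.9 CPM) and CH-like cells (24.9 against 2.69 CPM). Serpinh1 was the reverse, at 828 against 1717 CPM, as was Itga6, at 0.515 against 10.7 CPM. Serpinh1 also read lower at 16 months in each other mesenchymal class and in both vessel classes. It was 814 against 2514 CPM in EMP-like and 440 against 829 CPM in endothelial-like cells. Of the other type IV collagen chains, Col4a5 was at most 29.4 CPM in mural-like and 0.612 CPM in AD-like cells, and Col4a6 reached 21.2 CPM in CH-like cells.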

How the data were processed

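Single Td+ cells were captured with 10x Genomics droplets, 1 library per age. The authors deposited raw UMI counts per gene and barcode before their cell filter, made with Cell Ranger 3.0.2 on mm10 with the reporter sequence, and Seurat 2 is named for their own clustering. Counting depth per library is given with the results. Barcodes outside 200 to 6000 genes or above 5% mitochondrial UMIs were dropped. The rest were clustered with Seurat 5.3.0 in R 4.3.3 on 2000 variable genes, from which members, pathway lists and markers had been removed, with 30 components and a resolution of 0.8. Canonical correlation joined the 2 youngest libraries before clustering, the others were clustered alone, and mesenchymal clusters were clustered again. Clusters were named from fixed markers (at least 3), and clusters of mixed lineage were left out of the classes. Clusters that no marker list named were left out too, with 1182, 639, 275 and 687 cells at 1, 1.5, 3 and 16 months. The study's intermediate and lineage committed progenitors had no marker list and so no class. For the main classes no cell was dropped as a doublet beyond the limit of 6000 genes, and Scrublet served for an alternative only.

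UMIs were summed over the cells of a class with at least 20 cells and scaled to CPM (Python 3.11.15, numpy 2.4.6, scipy 1.17.1, pandas 2.3.3). A fold needed 10 CPM in 1 group, counts under 3 UMIs were set to 3, and 2-fold was the call. Ages could not be tested with 1 library each, and classes, which come from clustering the same cells, were compared within each library with no test. The fold calculation was tested on simulated data. The genes named are the 10 members in all classes, the 39 pathway genes, the 5 genes most like the members' sum and the gene most like each member. The members and lists were chosen with earlier results of these data known. Alternatives were resolutions of 0.5 and 1.2, 20 components, each library clustered alone, 10% mitochondrial UMIs, 1000 genes per cell, removal of cells with the highest Scrublet scores, a mean over cells, thinning to 3000 UMIs, size factors, subtraction of the neutrophil-like level, no filter on low values, folds of 1.5 and 3, and AD-like cells without vessel markers. Leaving out each library in turn was added after the data were seen.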

Additional observations from a re-analysis of the deposited data

How the results depend on the processing

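The ages have 1 library each and cannot be paired, and the classes of a library were compared within it with no test. Counts of members past the line were taken over all 4 libraries. Of 144 recomputed counts, 131 stayed within 1.5 times and 13 did not. The 3 members at least 2-fold higher at 16 than at 3 months in AD-like cells became 1, Lama5, with a resolution of 0.5, with 10% mitochondrial UMIs, with the highest Scrublet scores removed, with a mean over cells, with the neutrophil-like level subtracted and at 3-fold. The 1 member higher in endothelial-like than AD-like cells, Hspg2, became 2 without the filter on low values (with Lama5), 3 at 1.5-fold (with Col4a1 and Col4a2) and 2 against AD-like cells without a vessel marker UMI (with Col4a1). Leaving out 1 library at a time gave 1 to 3. Members higher in AD-like than endothelial-like cells went from 0 to 1, Lamb1, at 1.5-fold, and those higher in mural-like cells from 3 to 1, Lama5, at 3-fold. Of 1855 recomputed log2 folds of single members, 142 left the counting interval of the reported value, and no called fold changed direction. The causes were not tested. With the highest Scrublet scores removed, no endothelial-like class of at least 20 cells was left at 1.5 months. Mural-like cells had no such class at 3 and 16 months. The counts of both vessel classes against AD-like cells could therefore not be recomputed over all 4 libraries. Scrublet itself called 350 of 8308, 97 of 5453, 57 of 4180 and 9 of 6143 cells at 1, 1.5, 3 and 16 months. These cells were not dropped from the main classes. Levels on 23 to 64 mural-like cells limit what can be said of single genes there, and the age comparison rests on 1 library on each side.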
